A study of Homo sapiens with 2 samples.

Results

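The inflammatory chemokine ligands described here are 10 secreted proteins that attract leukocytes: CXCL1, CXCL2, CXCL3, CXCL8, CXCL10, CXCL11, CCL2, CCL5, CCL20 and CX3CL1. They were taken by name from a count table of 44591 genes, which held a row for all 10. The cells were HSC-1, a cutaneous squamous cell carcinoma line, and their total RNA had been sequenced after transfection with a control siRNA (siNC) or with siRNA against the long noncoding RNA LINP1 (siLINP1). Each group was 1 library, so no difference below has a replicate check or a test, and every interval covers counting error only. Both groups were transfected at 70% confluency by the sample labels, kept for 6 h in medium without serum and for a further 24 h in medium with serum, and they share the cell line, whose labels name no allele, clone or further agent. The study's methods give another confluency and another time, and the siLINP1 oligonucleotide used is not named in the sources used here. The question put to the members is whether their mRNA levels differed between cells with and without the LINP1 knockdown.

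Chemokines are small proteins that bind G protein-coupled receptors on leukocytes and guide them along a concentration gradient. They are grouped by the spacing of their first cysteines into CXC, CC and CX3C ligands. In skin, keratinocytes are known to release CXCL1 and CXCL8, which act through CXCR1 and CXCR2 on neutrophils, CXCL10 and CXCL11, which act through CXCR3 on activated T cells, and CCL20, which acts through CCR6. Transcription of most of these genes is known to be switched on by NF-kB, by interferon regulatory factors or by AP-1. The mRNAs of several of them are short-lived, because AU-rich stretches near their ends are bound by decay factors such as ZFP36.

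The siNC library held 18829544 counted reads and the siLINP1 library 15383081. The counts were divided by size factors of 1.08 and 0.930, and 19840 genes had at least 10 reads summed over both libraries, among them all 10 ligands. LINP1 itself had 167 reads (10.7 RPKM) in siNC and 23 reads (1.80 RPKM) in siLINP1, a log2 fold change of -2.65 (95% interval -3.35 to -2.02), where RPKM divides the reads by gene length and by the library total. The defining markers of the labelled squamous origin were at low levels, with at most 0.738 RPKM in either library for KRT5, TP63 and CDH1, and KRT14 stood at 7.89 and 3.46 RPKM. Among all 10 keratinocyte markers listed, SFN stood highest at 10.7 and 6.82 RPKM, and the median was 0.705 and 0.769 RPKM. VIM, a mesenchymal filament gene, stood at 1519 and 1278 RPKM. Of the other mesenchymal markers, CDH2 at 22.2 and 15.9 RPKM, FN1 at 6.80 and 5.44 and PDGFRB at 3.43 and 1.96 stood highest. COL1A1 was at 1.70 and 0.866 RPKM. COL1A2, COL3A1 and THY1 were at most 0.0961 RPKM. The median of all 8 was 2.57 and 1.41 RPKM. The cells are therefore called here by the name of their line.

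Of the 10 ligands, 9 were higher and 1 was lower in siLINP1, where 9490 of all 19840 genes were higher and 10350 lower. The 9 include CXCL10, CCL20 and CX3CL1, whose intervals include no change. CXCL1, CXCL2, CXCL3, CXCL11 and CCL5 were higher by more than 2-fold, and CCL2 was lower by more than 2-fold. Among all 19840 genes, 6.74% were higher and 5.3% were lower past that fold. The whole 95% interval lay above a 2-fold rise for CXCL1, CXCL11 and CCL5, as it did for 1.59% of all genes, and below a 2-fold fall for 0 of the ligands and 0.428% of all genes. A weaker mark, an interval wholly above 0 on the log2 scale, was met by 6 ligands and by 23% of all genes, and an interval wholly below 0 by CCL2 and by 25.6% of all genes. Among the 13336 genes with at least 100 reads, which include 7 of the ligands, 2.71% were higher and 1.11% were lower by more than 2-fold. The median log2 fold change was 0.99 for the 10 ligands and -0.02 for all genes.

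**Figure D1:**
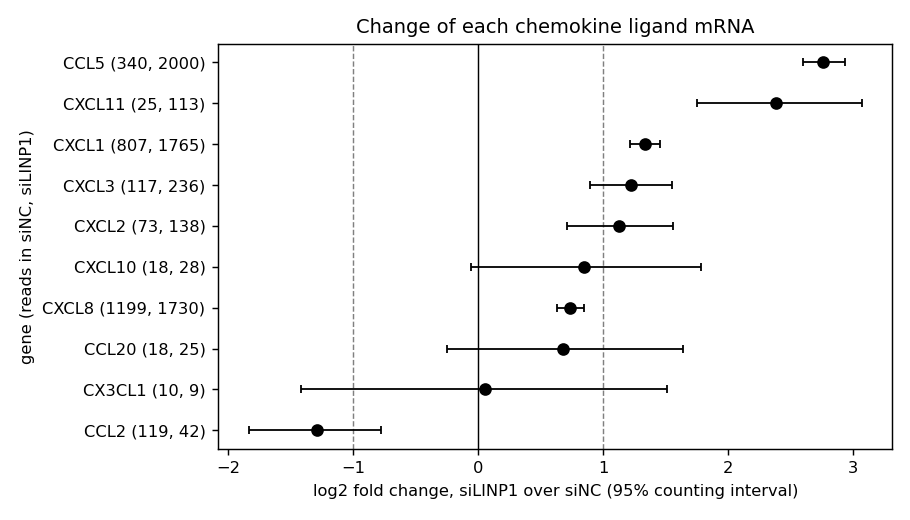
The log2 fold change of each ligand, siLINP1 over siNC, is plotted on the x axis with its 95% counting interval, the reads of both libraries stand beside each gene name, and dashed lines mark a 2-fold change. CCL5, CXCL11 and CXCL1 lie wholly to the right of the 2-fold line, CCL2 alone lies left of 0, and the intervals of CXCL10, CCL20 and CX3CL1 cross 0.

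The neutrophil-attracting ligands CXCL1, CXCL2, CXCL3 and CXCL8 are encoded in a cluster on chromosome 4. CXCL1, CXCL2 and CXCL3 are close copies of each other that signal through CXCR2, and CXCL8 also binds CXCR1. Their promoter stretches at positions -130 to -41, counted from the transcription start, are shown because all 4 genes were higher in siLINP1 and all 4 hold a kB motif there, the kind of element that NF-kB dimers bind. Whether the motif had a part in the rise was not tested. The sequences are from RefSeq on GRCh38.p14, are written 5′ to 3′ on the strand of the gene, and carry each match to the kB motif GGNNNTTCC in capitals, where N is any base and either strand counted.
CXCL1, chr4:73869263-73869352, plus strand: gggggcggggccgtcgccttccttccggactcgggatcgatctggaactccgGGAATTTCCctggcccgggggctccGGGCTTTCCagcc
CXCL2, chr4:74099236-74099325, minus strand: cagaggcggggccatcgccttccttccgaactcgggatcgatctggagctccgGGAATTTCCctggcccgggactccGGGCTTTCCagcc
CXCL3, chr4:74038730-74038819, minus strand: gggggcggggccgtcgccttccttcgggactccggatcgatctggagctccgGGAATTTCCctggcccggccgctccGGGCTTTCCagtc
CXCL8, chr4:73740439-73740528, plus strand: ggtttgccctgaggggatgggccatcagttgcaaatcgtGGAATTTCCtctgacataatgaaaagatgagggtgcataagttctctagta
The match farther from the start has the same letters in all 4 genes, and the match nearer the start is shared by CXCL1, CXCL2 and CXCL3 and is missing from this stretch of CXCL8. CXCL8 also held a match to the AP-1 motif TGANTCA farther upstream, at -137 to -131.

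CXCL1 had 807 reads (36.0 RPKM) in siNC and 1765 reads (96.3 RPKM) in siLINP1, which is 2.53-fold higher (95% interval 2.33 to 2.75). It is annotated on GRCh37 at chr4:74735109-74737019 on the plus strand, and its log2 fold change of 1.34 (1.22 to 1.46) ranked 177 by rise among the 13336 genes with at least 100 reads. By RPKM it moved from position 2003 to position 605 among all genes of the table.

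CXCL3, at chr4:74902306-74904490 on the minus strand, had 117 reads (5.36 RPKM) in siNC and 236 reads (13.2 RPKM) in siLINP1, 2.33-fold higher (1.86 to 2.94). CXCL2, at chr4:74962752-74964997 on the minus strand, had 73 reads (3.22 RPKM) and 138 reads (7.44 RPKM), 2.19-fold higher (1.63 to 2.94). Both were thus above 2-fold as point values, with intervals that reach below it. The rises of CXCL1, CXCL2 and CXCL3 could not be told apart: the ratio of the fold of CXCL1 to that of CXCL2 was 1.16 (0.848 to 1.57), to that of CXCL3 1.08 (0.848 to 1.38), and the ratio of CXCL3 to CXCL2 was 1.07 (0.731 to 1.55). The intervals of these ratios allow a difference of up to 1.57 times. Together the 3 genes had 997 reads in siNC and 2139 in siLINP1, a log2 fold change of 1.31 (1.20 to 1.42).

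These 3 transcripts resemble each other closely enough for reads to be shared. Of all 50-base windows of the annotated canonical transcript, 5.33% in CXCL1, 10.1% in CXCL2 and 5.26% in CXCL3 occur also in another of the 3, and of 100-base windows 0% do. The read length is not given in the sources used here, and the effect on the counts was not tested.

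CXCL8, at chr4:74606223-74609433 on the plus strand, was the ligand with most reads in siNC. It had 1199 reads (37.3 RPKM) in siNC and 1730 reads (66.0 RPKM) in siLINP1, 1.67-fold higher (1.55 to 1.80), so its interval lies wholly under 2-fold. The rise was smaller than that of its neighbours in the cluster. The fold of CXCL1 was 1.52 times that of CXCL8 (1.35 to 1.70) and the fold of CXCL3 was 1.40 times it (1.10 to 1.78), whereas for CXCL2 the ratio was 1.31 (0.970 to 1.78), an interval that includes 1. The other CXC ligand genes between CXCL8 and CXCL2 were barely read: CXCL6 and CXCL5 had 1 and 0 reads each in siNC and siLINP1, and PF4, PF4V1 and PPBP had 0 reads in both.

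**Figure D2:**
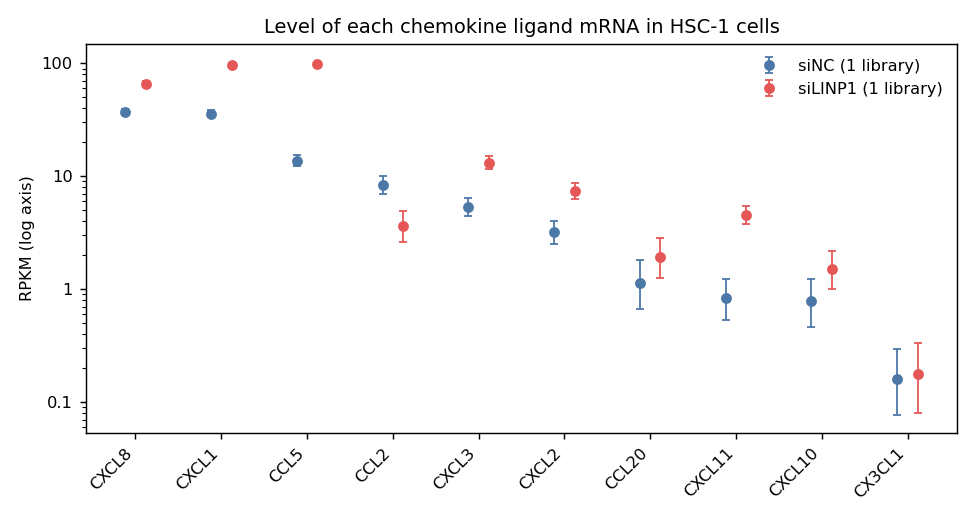
The level of each ligand mRNA in RPKM, on a log axis with exact 95% Poisson intervals, is shown for the siNC library (blue) and the siLINP1 library (red), with genes ordered by their siNC level. CXCL8 and CXCL1 head the order in siNC at 37.3 and 36.0 RPKM, and CCL5 and CXCL1 head it in siLINP1 at 99.1 and 96.3 RPKM.

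CXCL10 and CXCL11 are the interferon-induced ligands of CXCR3, and their genes lie side by side on the minus strand of chromosome 4, 10146 bases apart. Their promoter stretches are shown because the neighbours differed in their change and in the motifs of the same window. Whether the motifs had a part in that difference was not tested. The capitals mark the kB motif, in the first CXCL10 line also the interferon-stimulated response element (ISRE), searched as GAAA, any NN and GAAA again, and in the CXCL11 line also the AP-1 motif. Source, build and direction are as above, the first CXCL10 line covers positions -230 to -131, and the other lines cover -130 to -41.
CXCL10, chr4:76023628-76023727, minus strand: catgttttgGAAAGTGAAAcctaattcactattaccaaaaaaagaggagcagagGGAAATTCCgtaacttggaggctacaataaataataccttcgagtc
CXCL10, chr4:76023538-76023627, minus strand: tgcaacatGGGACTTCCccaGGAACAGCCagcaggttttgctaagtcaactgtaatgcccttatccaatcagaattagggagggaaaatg
CXCL11, chr4:76036111-76036200, minus strand: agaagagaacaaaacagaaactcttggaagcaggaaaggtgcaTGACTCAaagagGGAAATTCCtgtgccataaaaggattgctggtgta
Reading from the left, the first CXCL10 line holds the ISRE match and then a kB match, the second CXCL10 line holds a kB match on each strand, and the CXCL11 line holds the AP-1 match and then a kB match. An ISRE match was found in the CXCL10 window and not in the CXCL11 window, which says only that these letters are not in those bases.

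CXCL11, at chr4:76954835-76957350, had 25 reads (0.827 RPKM) in siNC and 113 reads (4.57 RPKM) in siLINP1, 5.23-fold higher (3.37 to 8.42). CXCL10, at chr4:76942269-76944689, had 18 reads (0.786 RPKM) and 28 reads (1.5 RPKM), 1.80-fold higher with an interval from 0.960 to 3.45 that includes no change. In siNC the levels of both genes per length were nearly equal, with Poisson intervals of 0.535 to 1.22 RPKM for CXCL11 and 0.466 to 1.24 RPKM for CXCL10. In siLINP1 they no longer overlapped, at 3.77 to 5.50 RPKM and 0.995 to 2.16 RPKM. The fold of CXCL11 was 2.89 times that of CXCL10 (1.29 to 6.41). CXCL9, the remaining CXCR3 ligand, had 1 and 0 reads. ART3 overlaps both genes on the opposite strand and had 21 and 13 reads, and the strand setting of the counting is not given in the sources used here, so reads of ART3 and of either ligand could have been mixed.

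Among the CC ligands, CCL5 (RANTES), which attracts T cells and monocytes, had the largest fold of the members. It had 340 reads (13.8 RPKM) in siNC and 2000 reads (99.1 RPKM) in siLINP1, 6.80-fold higher (6.06 to 7.65), and ranked 23 by rise among genes with at least 100 reads. Its gene is at chr17:34198495-34207377 on the minus strand. From position 4996 by RPKM in siNC it moved to position 587 in siLINP1, where its level of 94.8 to 104 RPKM overlapped that of CXCL1, 91.8 to 101 RPKM.

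The fold of CCL5 was 2.69 times that of CXCL1 (2.33 to 3.11) and 3.78 times that of CXCL10 (1.95 to 7.17). Against CXCL11 the ratio was 1.30 (0.796 to 2.06), so these large rises were not separated by their counts. The CCL5 transcript shares 18.5% of its 50-base windows and 7.92% of its 100-base windows with annotated transcripts of other genes, and whether this added reads was not tested. An antisense gene, ENSG00000237805.1, overlaps CCL5 and had 3 reads in each library.

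CCL2 (MCP-1), which draws monocytes through CCR2, was the member that went down. Its gene is at chr17:32582296-32584222 on the plus strand, and it had 119 reads (8.44 RPKM) in siNC and 42 reads (3.65 RPKM) in siLINP1. This is 2.45-fold lower, a log2 fold change of -1.29 (-1.84 to -0.77), and ranked 46 by fall among the genes with at least 100 reads. The nearer end of the interval is under a 2-fold fall. CCL2 and CCL5, both CC ligands of chromosome 17, thus moved in opposite directions, with a fold of CCL5 that was 16.6 times that of CCL2 (11.4 to 24.7).

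CCL20, the ligand of CCR6 on Th17 cells and dendritic cells, is at chr2:228678558-228682280 on the plus strand. It had 18 reads (1.14 RPKM) in siNC and 25 reads (1.93 RPKM) in siLINP1, 1.61-fold higher with an interval from 0.842 to 3.12. CX3CL1 (fractalkine), a membrane-anchored ligand that is shed to become soluble, is at chr16:57406373-57418960 on the plus strand. It had 10 reads (0.160 RPKM) and 9 reads (0.176 RPKM), a fold of 1.04 with an interval from 0.374 to 2.85. The intervals of CCL20, CX3CL1 and CXCL10 include no change, so a difference between the libraries was not detectable for them at this depth.

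**Figure D3:**
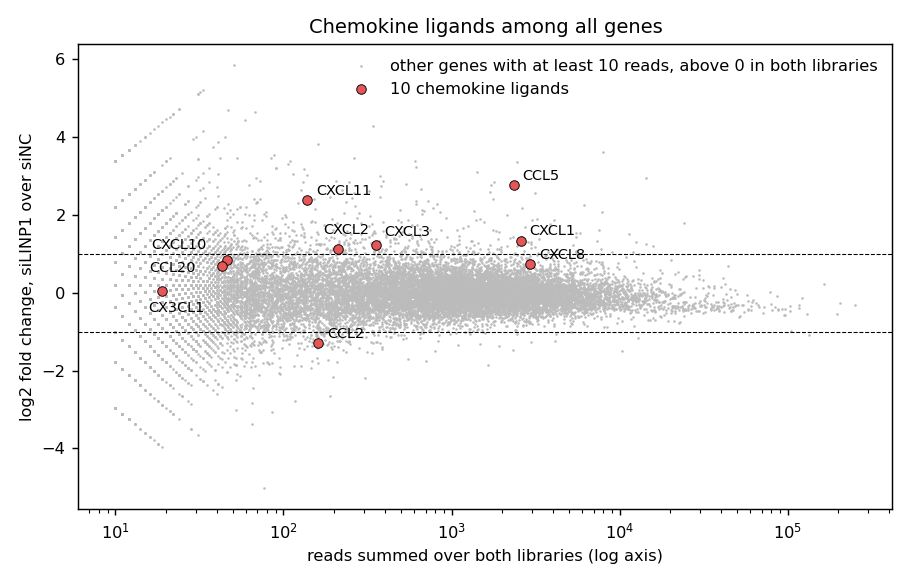
Each grey point is a gene with at least 10 reads and above 0 in both libraries, plotted by its reads summed over both libraries (log x axis) and its log2 fold change, siLINP1 over siNC (y axis), with the 10 ligands in red and dashed lines at 2-fold. CCL5 at 2340 reads and CXCL1 at 2572 reads stand above most genes of like depth, and CXCL10, CCL20 and CX3CL1 lie at 19 to 46 reads, where grey points spread past 2-fold in both directions.

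Summed over the 10 ligands, 2726 reads (107 RPKM) in siNC became 6086 reads (294 RPKM) in siLINP1, 2.58-fold more (2.47 to 2.70). CCL5 carried a large part of this: without it the sum went from 2386 to 4086 reads, 1.98-fold more (1.88 to 2.08). The make-up of the ligand reads changed with it. CXCL8 gave 44.0% of them in siNC and 28.4% in siLINP1 (exact 95% binomial interval 27.3 to 29.6), and CCL5 gave 12.5% (11.3 to 13.8) and 32.9% (31.7 to 34.1). CXCL1 held a near-constant share of 29.6% and 29.0%, and CCL2 went from 4.37% to 0.690%.

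The other chemokine ligands, a list of 38 genes of which 37 had a row, were mostly silent. No read was counted for 24 of them in either library, and 6 had at least 10 reads. Of these 6, CCL3, CCL4 and XCL1 were higher by more than 2-fold and 0 were lower, with a median log2 fold change of 1.29, against 6.74% and 5.3% of all genes. CCL3 and CCL4, the macrophage inflammatory proteins, had 10 and 63 reads and 2 and 19 reads in siNC and siLINP1. Their ratios were 7.28 (3.71 to 15.9) for CCL3 and 11.0 (2.65 to 97.3) for CCL4. The fold of CCL5 relative to that of CCL3 was 0.934 (0.423 to 1.86). Each of CCL3 and CCL4 has near-identical gene copies between which reads could be split, so their counts are uncertain, and the same holds for XCL1, with 6 and 18 reads and a copy in XCL2. The copies CCL3L1, CCL3L3 and CCL4L2 had 0 reads in both libraries, and XCL2 had 5 and 2 reads. The best-read genes of the list were not higher: CXCL16 had 147 and 93 reads (log2 fold change -0.45, -0.84 to -0.07) and CCL28 had 141 and 109 reads (-0.16, -0.54 to 0.21), both chosen after their values had been seen. Summed, the list had 323 and 314 reads, a fold of 1.12 (0.959 to 1.32), so the median above rests on sparsely read genes.

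The ligands' own receptors were nearly absent from these cells. CXCR1 and CXCR3 had 0 reads in both libraries, CXCR2 had 3 and 0, CX3CR1 had 1 and 0, and CCR2 and CCR6 had 0 and 1 each. In all, 5 of 23 receptor genes had at least 10 reads. Against 6.74% of all genes, 1 of these 5 was higher by more than 2-fold. It was CCR7 with 4 and 7 reads and an interval for the fold of 0.514 to 9.43. CCR10, the receptor of CCL27 and CCL28, was the most read with 130 and 76 reads, a fold of 0.676 (0.502 to 0.904). It falls outside the rule for named genes and was chosen after its values had been seen.

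Genes known to induce, restrain, stabilise or process chemokines numbered 47, and 41 had at least 10 reads. Of these, 10 were higher and 1 was lower by more than 2-fold, against 6.74% and 5.3% of all genes, and the median log2 fold change was 0.16. The higher count was 13 or 14 under the other scalings. All 14 NF-kB genes were read, and 4 of them were higher by more than 2-fold: NFKB2 (4315 and 7668 reads), NFKBIB (820 and 1625), NFKBIE (907 and 1938) and TNFAIP3 (718 and 2006). Among all genes with at least 100 reads, 2.71% were higher past that fold. REL (377 and 649 reads, 1.99-fold), RELB (975 and 1684 reads, 1.997-fold) and NFKBIA lay just under the threshold, and 7 of the 14 passed it when scaled by total counts, by TMM factors or by protein-coding genes, a check chosen after seeing the data. TNFAIP3, which encodes the NF-kB inhibitor A20, had the largest fold of this list, 3.23 (2.96 to 3.52). NFKBIA, the classic IkB inhibitor and itself an NF-kB target, had 905 and 1546 reads (log2 fold change 0.98, 0.86 to 1.10). By interval, 10 of the 14 lay wholly above 0 on the log2 scale and 2 wholly below, against 23% and 25.6% of all genes. The 2 were BCL3 (log2 fold change -0.27, -0.38 to -0.16) and IKBKB (-0.32, -0.45 to -0.18), both named after their values had been seen. The subunit genes differed among themselves, with log2 fold changes of 0.99 (0.81 to 1.18) for REL, 1.00 (0.88 to 1.11) for RELB, 0.59 (0.49 to 0.68) for NFKB1 and -0.07 (-0.15 to 0.01) for RELA, and REL and RELB were chosen after their values had been seen.

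The cytokines known to induce chemokines included the largest folds of the regulators. IFNB1, a type I interferon, had 10 and 80 reads, 9.25-fold more (4.78 to 20.0). The type III interferon IFNL1 had 19 and 322 reads, 19.6-fold more (12.3 to 33.0). IFNL3 had 2 and 45 reads, a ratio of 26.0 (6.80 to 221), and IFNL2 had 0 and 14 reads. For IFNL2 this is 5.40-fold higher if the siNC library is set to a floor of 3 reads. The lower end of its 95% counting interval is 3.84-fold. These 2 genes are near-identical, so their split of reads is uncertain. TNF, a main inducer of CXCL8 and CCL2, had 0 and 2 reads. IL1A had 261 and 258 reads (log2 fold change 0.19, -0.06 to 0.45), and IL1B had 266 and 95 reads (log2 fold change -1.28, -1.63 to -0.93). IL1B thus stood with CCL2 among the genes that were lower. Of the 6 interferon factors, 0 passed 2-fold, which is near the background of 6.74% of all genes higher and 5.3% lower. IRF1, 1 of the 6, had a log2 fold change of 0.94 (0.83 to 1.05).

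Of the 3 motifs searched, the kB motif was in most of the ligand promoters. RefSeq promoters, 250 bases before to 50 after the start, were matched for 7 of the 10 members, without CCL2, CCL5 and CX3CL1. All 7 held at least 1 kB match on either strand, against 20.1% of 35116 promoters and 6 of 31 promoters of other chemokine ligands. The windows of CXCL1, CXCL2 and CXCL3 are copies of much of the same sequence, so their matches are not separate observations. In CCL20 it lay at -79 to -71. The ISRE was found in 1 of 7 members and 3.57% of all promoters, and the AP-1 motif in 2 of 7 and 7.71%.

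**Figure D4:**
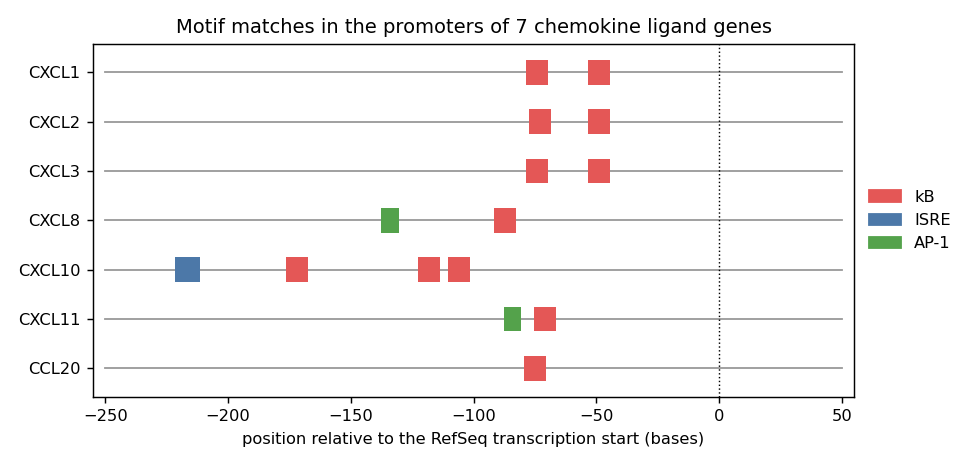
Each grey line is the promoter window of a ligand gene from 250 bases before to 50 after the transcription start (x axis, bases), with matches to the kB motif in red, the ISRE in blue and the AP-1 motif in green. The kB matches of CXCL1, CXCL2 and CXCL3 lie in near-equal places between -78 and -45, and CXCL10 alone has 3 kB matches and the ISRE.

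A further feature that set the members apart from each other was the density of the pentamer ATTTA, the core of AU-rich decay elements, in the 3′UTR of the annotated canonical transcript. CXCL2 held 10 copies (14.0 per kb), CXCL3 7 (10.4 per kb), CXCL1 6 (7.77 per kb), CXCL8 9 (7.19 per kb) and CCL20 3 (6.34 per kb), each denser than at least 95.9% of 16869 genes with a 3′UTR of 200 bases or more. CCL2, CXCL10 and CXCL11 held 1 copy each, CX3CL1 held 2 and CCL5 held 0. By density the median gene stood at 1.77 per kb. CCL2, the member that was lower, was above this at 2.66 per kb, denser than 66.3% of genes. CXCL10 at 1.23 per kb, CXCL11, CX3CL1 and CCL5 were below it. The members below the median were thus CCL5 and CXCL11, which had the largest folds, and CXCL10 and CX3CL1, whose intervals include no change. Of the 7 listed genes that act on mRNA stability, not all of them through AU-rich decay, 2 passed 2-fold upwards, as did 6.74% of all genes. They were ZFP36 (1080 and 2711 reads, 2.90-fold higher, 2.70 to 3.12) and the endonuclease gene ZC3H12A (356 and 655 reads, 2.13-fold higher, 1.87 to 2.43). Whether any of the 7 acted on the ligand mRNAs was not tested. By interval, 3 of the 7 lay wholly above 0 on the log2 scale and 4 wholly below, against 23% and 25.6% of all genes. The median log2 fold change of the 7 was -0.26.

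Proteases that release or trim these ligands changed less. ADAM10 and ADAM17, the sheddases of CX3CL1, had 1813 and 1264 reads and 1502 and 1067 reads, log2 fold changes of -0.31 (-0.42 to -0.21) and -0.28 (-0.40 to -0.17). DPP4, which clips CXCL10, CXCL11 and CCL5, had 14 and 8 reads. Of the 9 proteases listed, 8 had at least 10 reads and 0 passed 2-fold in either direction. With 6.74% of all genes higher and 5.3% lower past that fold, 0 of 8 is near the background.

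Leukocytes also make several of these ligands, so their markers were read in the same libraries, whose labels name only the HSC-1 line. In bulk RNA, fewer cells of a type and less RNA per cell cannot be told apart. Of 10 leukocyte markers, CD3E was at 0 in both libraries, PTPRC, which marks all leukocytes, had 1 and 4 reads, and the summed level was 51.0 RPKM in siNC and 49.3 RPKM in siLINP1, nearly all of it CD68. Of the 6 with at least 10 reads, 3 were lower by more than 2-fold (CD14 with 12 and 3 reads, LYZ with 28 and 11, CSF1R with 31 and 11) and 2 were higher (CD163 with 2 and 17 reads, ITGAM with 12 and 148). Past that fold, 5.3% of all genes were lower and 6.74% were higher. The marker genes of endothelium, another source of CCL2 and CX3CL1, summed to 1.28 and 0.820 RPKM, those of keratinocytes to 23.2 and 15.5 RPKM and those of mesenchymal cells to 1553 and 1302 RPKM. The mesenchymal sum was nearly all VIM, at 1519 and 1278 RPKM. Medians were 2.57 and 1.41 RPKM for the mesenchymal markers and 0.705 and 0.769 RPKM for the keratinocyte markers. As the labels name only the HSC-1 line, these marker reads are not assigned to other cell types. Their relation to the ligand changes was not tested.

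The genes around the ligands were mostly not read or did not pass 2-fold. Within 100 kb of a member lay 51 other genes, 16 of them with at least 10 reads. Of these 16, 1 was higher by more than 2-fold (ENSG00000267347.1 near CCL5, 3 and 13 reads) and 3 were lower: RDM1 near CCL5 with 23 and 5 reads, ASIC2 near CCL2 with 9 and 3, and PLLP near CX3CL1 with 12 and 2. Of all genes, 6.74% were higher and 5.3% were lower past that fold, so the 1 rise among 16 is near the background, and each of the 4 rests on at most 28 reads. TAF15, 24249 bases from CCL5, had 1839 and 1653 reads (log2 fold change 0.06, -0.04 to 0.15), and SDAD1, 30154 bases from CXCL10, had 973 and 978 reads (log2 fold change 0.22, 0.09 to 0.35). These well-read neighbours were chosen after their values had been seen.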

How the data were processed

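RNA sequencing of HSC-1 cells, 1 library per condition, was analysed from a gene table. Alignment by the authors was to GRCh37/hg19, with Tophat2, and counting was by HTSeq; the submitters' processing notes also name HISAT2, HISAT and Bowtie2. The deposited counts are raw read counts per gene. The authors also deposited RPKM values, which divide the count by the deposited gene length and the library total. Annotation, counting mode and strand setting are not given in the sources used here. Another 12 per-sample columns of the table were left out.

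Median-of-ratios size factors scaled the counts, and genes with fewer than 10 reads over both libraries were left out. Log2 fold changes were taken without a pseudocount, with 95% Clopper-Pearson intervals of the split of reads. A gene at 0 reads in 1 library counts as past the fold. The ratio of folds of 2 genes is the conditional exact odds ratio, over 14 pairs chosen after values were seen. No p-value was computed. Results on some single genes are not reported here. Named were all members, other ligands, receptors and regulators past 2-fold with at least 10 reads plus a short fixed list, and neighbours within 100 kb past 2-fold; names outside this rule, among them single receptors, ligands and markers given at 0 or few reads, were chosen after their values were seen. The members and gene lists were chosen with earlier results of these data known. Promoters came from RefSeq (GRCh38.p14), transcripts from GENCODE on GRCh37. The procedure was tested on simulated counts that held counting error only, so this check does not cover variation between cultures. The tools were edgeR 4.0.16 (TMM factors only) in R 4.3.3, and scipy 1.17.1, pandas 2.3.3, numpy 2.4.6 and matplotlib 3.10.9 in Python 3.11.15. Alternatives were total-count scaling, TMM, coding-gene size factors, pseudocounts of 1 and 5, minimums of 1 and 100 reads, a 1.5-fold threshold, and the whole interval past 2-fold.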

Additional observations from a re-analysis of the deposited data

How the results depend on the processing

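Scaling by total counted reads, by TMM factors or by size factors of protein-coding genes moved no ligand by more than its counting error and no count by more than 1.5 times, except that 7 NF-kB genes in place of 4 were higher by more than 2-fold under each of these scalings, an alternative chosen after seeing the data. The regulators higher by more than 2-fold went from 10 to 13 or 14. The sign of each ligand's log2 fold change held under every scaling and pseudocount. CXCL11 ranged from 2.16 to 2.47, CCL5 from 2.75 to 2.85 and CCL2 from -1.29 to -1.21. Total-count scaling raised the median of all genes from -0.02 to 0.06. With at least 100 reads, the median of the 7 ligands kept was 1.22, 0 other ligands were higher, and 362 of all genes passed 2-fold upwards and 148 downwards. With at least 1 read, 5 other ligands were lower, 7 receptors were higher and 3 lower, and 5179 genes were higher and 4399 lower. A pseudocount of 5 left 824 higher and 510 lower genes. The 1 receptor higher by more than 2-fold, CCR7, was lost with pseudocounts of 1 and 5, with at least 100 reads and with the whole interval past 2-fold (0 each). Requiring the whole interval past 2-fold left 3 ligands higher and 0 lower, 0 regulators lower, and 316 genes higher and 85 lower. At 1.5-fold, 8 ligands, 2 receptors, 16 regulators (9 of them NF-kB genes) and 2863 genes were higher, and 1 receptor, 3 regulators and 2573 genes were lower. No paired analysis was possible because each condition had 1 library, and no replicate could be left out for the same reason. CXCL10, CCL20 and CX3CL1, with at most 28 reads in a library, limit what can be said of them.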
